A study of Homo sapiens with 22 samples.

Results

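The genes described here are CIITA, the master regulator of major histocompatibility complex (MHC) class II transcription, CD74, the invariant chain, and 5 class II chain genes (HLA-DRA, HLA-DPA1, HLA-DQA1, HLA-DRB1 and HLA-DRB5), measured in untreated human glioblastoma cell lines. The members were listed by symbol, but with earlier results of these data known. Their p-values, shares and ranks therefore describe them and do not test a choice made beforehand. All 7 had a row among the 2221 genes listed for 8 lines, and 1 of them, HLA-DQA1, also had a row among the 5383 genes listed for 3 other lines.

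Class II molecules are cell-surface pairs of an alpha and a beta chain that present peptides to CD4+ T cells, and they are typical of B cells, dendritic cells and macrophages. CIITA binds no DNA itself. It is recruited by a protein complex that sits on the conserved X and Y elements of class II promoters, and other cell types, glial cells among them, can make it in response to interferon gamma. The invariant chain CD74 binds new class II pairs in the endoplasmic reticulum, fills their groove and escorts them to the endosome, where HLA-DM exchanges what is left of it for peptide. The CD74 promoter carries the same kind of elements and is known as a CIITA target.

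Poly(A) RNA of 11 established glioblastoma lines was sequenced in strand-specific (reverse) libraries, 2 per line and 22 in all. No line was treated, and the labels give no time or age. The medium was DMEM for LN-229, LN-18, KNS-42 and A-172, EMEM for U-87MG, T98G, U-138MG and AM-38, and RPMI for SNU-1105, SNU-466 and KALS-1, with 20% serum for AM-38 and 10% for all others. The labels do not say whether both libraries of a line stem from different cultures, and p-values therefore measure the spread between libraries only, which may be technical.

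Library totals, worked back from the deposited reads, gene lengths and FPKM (fragments scaled to gene length and library size), were 17117491 to 21011463 reads for the 8 lines, of which the listed genes held 5.81% to 10.2%. Levels are given as CPM, the reads of a gene scaled to this total, in which 1 read came to 0.0476 to 0.0584 CPM. Where a library had 0 reads of a gene, up to 3 remain possible, or 0.143 to 0.175 CPM, counting error alone considered. The 2 libraries of T98G stood apart: 52.8% of their genes were within 1.5-fold of each other and 66.8% in SNU-1105, against 81.7% to 88.3% in the other 6 lines. The sources used here do not say how the listed genes were chosen, and 2067 of 2071 tested genes (99.8%), all 7 members included, differed among the 8 lines by the edgeR quasi-likelihood test (Benjamini-Hochberg adjusted p under 0.05).

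The members lie on 3 chromosomes in GENCODE 29 (GRCh38). CIITA is at chr16:10866222-10943021 on the plus strand and CD74 at chr5:150401637-150412929 on the minus strand. The other 5 lie in the class II region of chromosome 6, from HLA-DRA (chr6:32439842-32445046, plus) through HLA-DRB5 (chr6:32517343-32530287, minus), HLA-DRB1 (chr6:32578769-32589848, minus) and HLA-DQA1 (chr6:32628179-32647062, plus) to HLA-DPA1 (chr6:33064569-33080775, minus).

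To show the promoter letters at which the class II complex is known to assemble, the 250 bases before each RefSeq start site (GRCh38.p14) were searched on both strands for an X core, AGNNAC, followed after 12 to 30 bases by a Y core, ATTGG or its complement CCAAT. These letters and the spacing were chosen after the sequences had been seen. RefSeq promoter windows were matched for 5 of the 7 members, not for CIITA and HLA-DRA. The arrangement was found in 4 of the 5, with 22 bases between the cores in CD74 (chr5:150412947-150413006, minus), 27 in HLA-DRB1 (chr6:32589883-32589942, minus) and in HLA-DRB5 (chr6:32530366-32530425, minus), and 28 in HLA-DQA1 (chr6:32637289-32637348, plus). Each line below gives 60 bases, 5′ to 3′ in the direction of the gene, with the X and Y cores in capitals.
CD74: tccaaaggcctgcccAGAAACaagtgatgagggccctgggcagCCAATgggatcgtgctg
HLA-DRB1: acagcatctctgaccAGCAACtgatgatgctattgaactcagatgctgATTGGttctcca
HLA-DRB5: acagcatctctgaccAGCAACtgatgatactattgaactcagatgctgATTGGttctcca
HLA-DQA1: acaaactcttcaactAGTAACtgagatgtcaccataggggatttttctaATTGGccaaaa

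The X core began 81 bases before the start site in CD74, 79 in HLA-DRB1, 123 in HLA-DRB5 and 102 in HLA-DQA1. The stretches of HLA-DRB1 and HLA-DRB5 differed at 1 of 60 bases. The 2 HLA-DPA1 windows held AGNNAC but no Y core, and so not the arrangement. Of all 35116 promoter windows of the same length 5.11% held the arrangement, 80.8% held AGNNAC and 32.0% held ATTGG or CCAAT, so the X core by itself is common. A match describes letters in the reference sequence and not a bound site in these lines.

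The members were read abundantly in 3 lines (LN-229, KNS-42, U-87MG), at intermediate and uneven levels in U-138MG, and at low levels in T98G, SNU-1105, LN-18 and KALS-1. For each of the 7 genes, every library of LN-229, KNS-42 and U-87MG exceeded every library of the other 5 lines. This split was read from the members' own levels, and the share of all tested genes that show it was not worked out. The number of members with at least 10 reads in both libraries was 7 in each of those 3 lines, 5 in U-138MG, 4 in T98G and in SNU-1105, 2 in LN-18 and 1, CIITA, in KALS-1. Each gene was compared between all 28 pairs of lines with the edgeR quasi-likelihood test and was called where the p-value, adjusted by Benjamini-Hochberg over all tested genes and pairs, was under 0.05 and the log2 difference at least 1. Of 196 such tests of a member, 161 (82.1%) were called, against 58.2% of all gene and pair tests. In RNA of whole cultures, fewer expressing cells and less RNA per cell cannot be told apart.

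**Figure D1:**
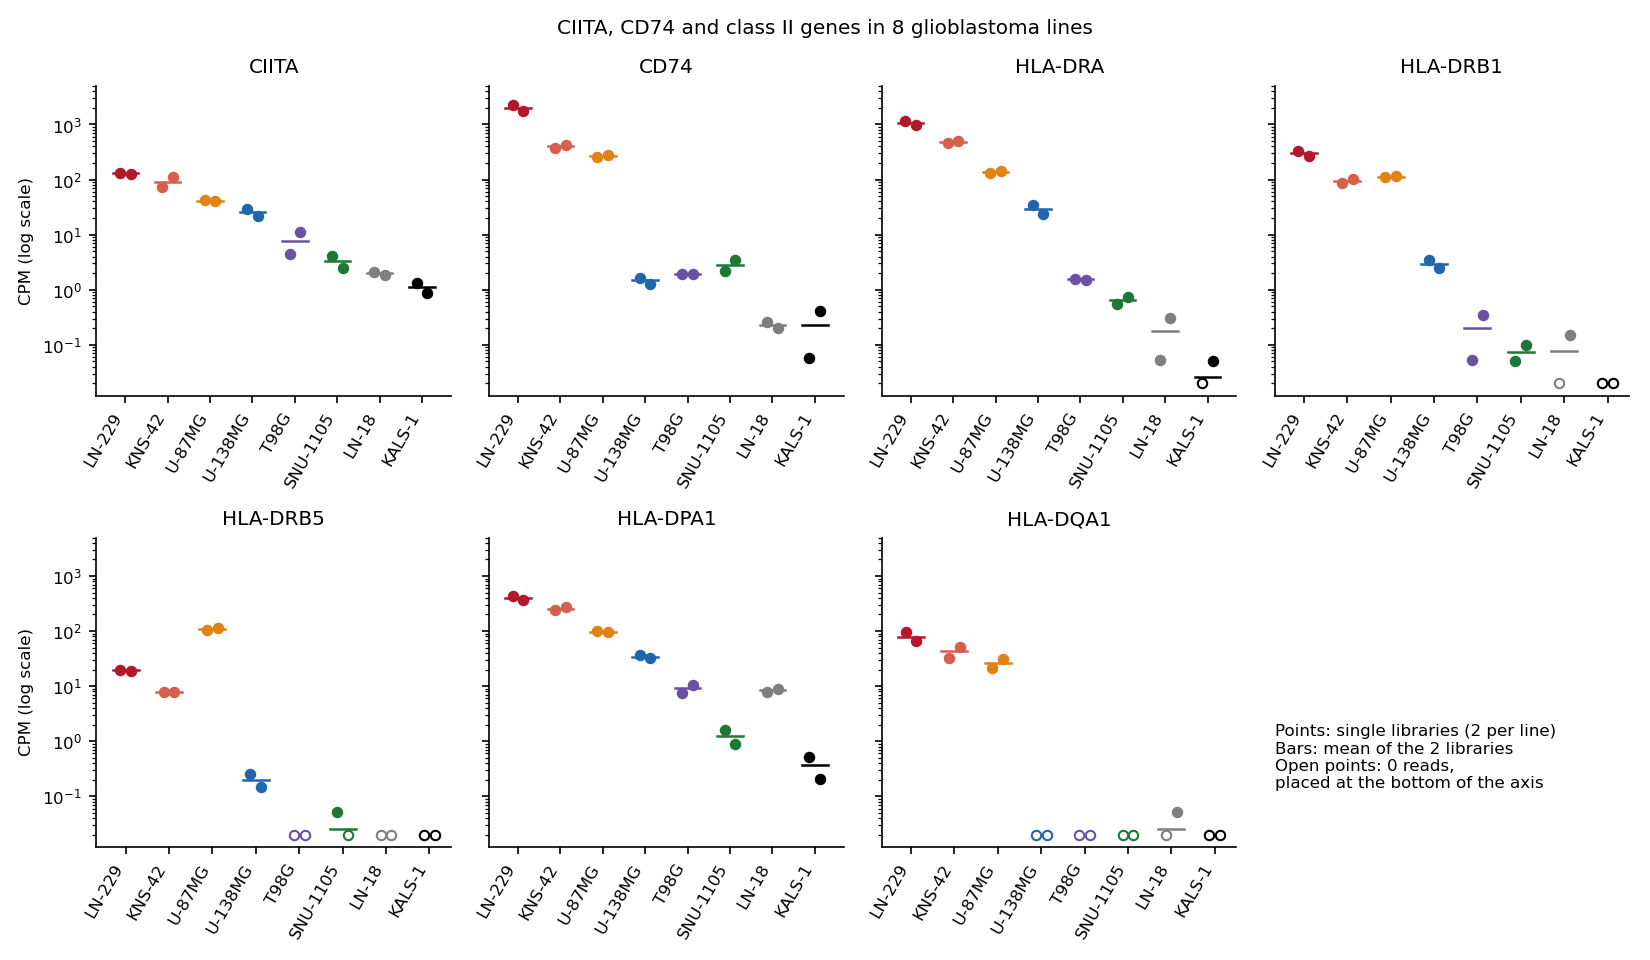
CPM (log axis) of the 7 members in each of the 16 libraries of the 8 lines. Points are libraries, bars the mean of the 2 libraries of a line, and open points 0 reads, and a reader should see that the 3 lines on the left lie above the other 5 in every panel, while U-138MG comes next for CIITA, HLA-DRA, HLA-DPA1, HLA-DRB1 and HLA-DRB5 but at 1.48 CPM for CD74.

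CIITA, the regulator, was read in all 16 libraries. The 2 libraries of LN-229 held 134 and 127 CPM, those of KNS-42 73.8 and 109 CPM, those of U-87MG 42.7 and 40.5 CPM, and those of U-138MG 29.7 and 21.9 CPM. T98G followed with 4.51 and 11.0 CPM, SNU-1105 with 4.06 and 2.45 CPM, LN-18 with 2.14 and 1.88 CPM, and KALS-1 with 1.34 and 0.868 CPM. The lines thus fell along a graded series, with 118-fold between the mean of LN-229 (131 ± 4.46 CPM, SD, n = 2) and that of KALS-1 (1.11 ± 0.336 CPM, SD, n = 2), and 24 of the 28 pairs were called.

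Neighbours in the order of CIITA were often not separated. By the edgeR quasi-likelihood test, LN-229 did not differ from KNS-42 beyond the spread (log2 difference 0.51, SE 0.31, adjusted p = 0.161), nor U-87MG from U-138MG (0.69, SE 0.32, adjusted p = 0.0668), SNU-1105 from LN-18 (0.69, SE 0.39, adjusted p = 0.132) or LN-18 from KALS-1 (0.87, SE 0.45, adjusted p = 0.0970). The LN-18 and KALS-1 pair was called with RLE factors (1.08, edgeR adjusted p = 0.0347). KNS-42 lay above U-87MG (1.14, SE 0.32, edgeR adjusted p = 0.00413), a call that ended without replicate 2 of KNS-42 (0.83, adjusted p = 0.0652). T98G lay above SNU-1105 (1.25, SE 0.36, edgeR adjusted p = 0.00518), which rested on its replicate 2 library (0.47 without it, adjusted p = 0.220) and on replicate 2 of SNU-1105 (0.93 without it, adjusted p = 0.0671).

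CD74 spanned a far wider range than CIITA. LN-229 had 2265 and 1795 CPM, KNS-42 had 373 and 426 CPM, and U-87MG had 257 and 282 CPM. Next came SNU-1105 (2.18 and 3.40 CPM), T98G (1.96 and 1.93 CPM) and U-138MG (1.66 and 1.297 CPM), and the lowest were LN-18 (0.261 and 0.204 CPM) and KALS-1 (0.0584 and 0.408 CPM). Between U-87MG and SNU-1105, the neighbours in that order, lay a log2 difference of 6.59 (SE 0.31, edgeR adjusted p = 5.98e-12).

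CD74 was called in 23 of 28 pairs. LN-229 lay 5.08-fold above KNS-42 in the ratio of means (log2 difference 2.35, SE 0.25, edgeR adjusted p = 1.52e-07). KNS-42 and U-87MG differed by 0.57 on the log2 scale (SE 0.24, edgeR adjusted p = 0.0453), below the size set for a call. Among the 3 lines at 1 to 3 CPM no pair was called with library totals: SNU-1105 against T98G gave 0.52 (SE 0.31, edgeR adjusted p = 0.152) and T98G against U-138MG 0.39 (SE 0.33, edgeR adjusted p = 0.316). With TMM or RLE factors of the listed genes in place of the library totals, U-138MG was called below T98G for CD74 (-1.201, edgeR adjusted p = 0.00375, and -1.21, adjusted p = 0.00346).

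Among the alpha chains, HLA-DRA, which pairs with every DR beta chain, differed in all 28 pairs. LN-229 held 1145 and 984 CPM, KNS-42 held 471 and 511 CPM, U-87MG held 129.6 and 143 CPM, and U-138MG held 34.0 and 24.1 CPM. The 4 lines did not overlap, and U-138MG lay 18.7-fold above the next line, T98G (1.59 and 1.52 CPM; log2 difference 4.22, SE 0.30, edgeR adjusted p = 5.95e-10). SNU-1105 followed at 0.559 and 0.751 CPM, LN-18 at 0.0522 and 0.305 CPM, and KALS-1 had 0 reads and 1 read.

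The calls at the low end of HLA-DRA rest on few reads. LN-18 had 1 and 6 reads, and its call over KALS-1 (edgeR adjusted p = 0.0465) ended with TMM factors (adjusted p = 0.0503), in DESeq2 (0.115), with the replicate number as a block (0.0523) and without replicate 1 of KALS-1 (0.228) or replicate 2 of LN-18 (0.721). T98G lay above SNU-1105 (log2 difference 1.24, edgeR adjusted p = 0.00721), which ended without replicate 1 of SNU-1105 (1.04, adjusted p = 0.0554). SNU-1105 lay above LN-18 (1.83, edgeR adjusted p = 0.00639), which ended without replicate 1 of LN-18 (1.09, adjusted p = 0.104).

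HLA-DPA1, the alpha chain of the DP molecule, was the one class II chain among the members with at least 10 reads in both libraries of LN-18. Its level was 424 and 363 CPM for LN-229, 241 and 270.2 CPM for KNS-42, 98.5 and 97.7 CPM for U-87MG, and 36.1 and 32.5 CPM for U-138MG. T98G (7.58 and 10.6 CPM) and LN-18 (7.99 and 8.80 CPM) overlapped and were not separated (log2 difference 0.11, SE 0.25, edgeR adjusted p = 0.733). LN-18 lay 6.65-fold above SNU-1105 (1.63 and 0.901 CPM; log2 difference 2.73, SE 0.30, edgeR adjusted p = 1.89e-07), although CIITA was not called between these lines and HLA-DRA was lower in LN-18. KALS-1 was lowest at 0.525 and 0.204 CPM, and 26 of 28 pairs were called.

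HLA-DQA1, the alpha chain of the DQ molecule, had more than 1 read in 3 of the 8 lines. These were LN-229 with 94.5 and 64.7 CPM, KNS-42 with 33.0 and 52.3 CPM, and U-87MG with 21.1 and 31.6 CPM. LN-18 had 1 read in all, and KALS-1, SNU-1105, T98G and U-138MG had 0 reads in both libraries, so that LN-229 lay at least 1059-fold, KNS-42 at least 568-fold and U-87MG at least 350.5-fold above U-138MG, counted against 3 reads over its 2 libraries. Of 28 pairs 16 were called (57.1%), near the 58.2% of all gene and pair tests.

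LN-229, KNS-42 and U-87MG were not all separated for HLA-DQA1. LN-229 against KNS-42 gave a log2 difference of 0.90 (SE 0.30, edgeR adjusted p = 0.0174), just under the size set for a call, and was called without replicate 2 of KNS-42 (1.27, adjusted p = 0.01012), without replicate 2 of LN-229 (1.15, adjusted p = 0.0156) and with RLE factors (1.00, adjusted p = 0.00820). KNS-42 against U-87MG gave 0.70 (SE 0.30, edgeR adjusted p = 0.0587) and was called without replicate 2 of U-87MG (1.01, adjusted p = 0.0362).

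The DR beta chains HLA-DRB1 and HLA-DRB5 put the lines in different orders. For HLA-DRB1, LN-229 held 329 and 273 CPM, U-87MG 111 and 116 CPM, KNS-42 85.4 and 101 CPM, and U-138MG 3.53 and 2.44 CPM. U-87MG and KNS-42 were not separated (log2 difference 0.28, SE 0.27, edgeR adjusted p = 0.379), and U-138MG lay 31.3-fold below KNS-42 (log2 difference 4.96, SE 0.33, edgeR adjusted p = 6.83e-10). In T98G, SNU-1105 and LN-18 the 2 libraries together held 7, 3 and 3 reads, and in KALS-1 0 reads, so that U-138MG lay at least 36.6-fold above KALS-1. T98G and LN-18 were separated for HLA-DRB1 only without replicate 2 of LN-18, which held all 3 of its reads (edgeR adjusted p = 0.0391).

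HLA-DRB5 was highest in U-87MG, at 106 and 114 CPM. LN-229 had 20.0 and 19.1 CPM and KNS-42 7.67 and 7.92 CPM, U-138MG had 5 and 3 reads, SNU-1105 1 read, and the other 3 lines none. By the edgeR quasi-likelihood test U-87MG lay above LN-229 for HLA-DRB5 by 2.49 on the log2 scale (SE 0.24, adjusted p = 2.08e-07) and below it for HLA-DRB1 by 1.41 (SE 0.27, adjusted p = 0.000222). HLA-DRB5 was the one member among the 7 that was called higher in U-87MG than in LN-229, where 25.7% of tested genes were higher in U-87MG and 24.8% in LN-229. The call of U-138MG over SNU-1105 (edgeR adjusted p = 0.0221) ended in DESeq2 (0.0818), without replicate 2 of SNU-1105 (0.172) and without replicate 1 of U-138MG (0.131).

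Per HLA-DRB1 read, U-87MG held 0.970 HLA-DRB5 reads, whereas KNS-42 held 0.0840, LN-229 0.0655 and U-138MG 0.0663. In humans HLA-DRB5 is carried by some class II haplotypes only, next to HLA-DRB1, and which haplotypes these lines carry was not tested. The paralogs can share reads: 8.64% of the 50-base windows of the GENCODE 29 HLA-DRB1 transcripts also occur in HLA-DRB5 and 8.42% of those of HLA-DRB5 in HLA-DRB1, while no window of 100 bases does, and no other pair of members shared a 50-base window. The sources used here do not say how reads of alleles unlike the reference, or reads that match both genes, were counted, so low levels of either gene beside a high level of the other are uncertain.

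**Figure D2:**
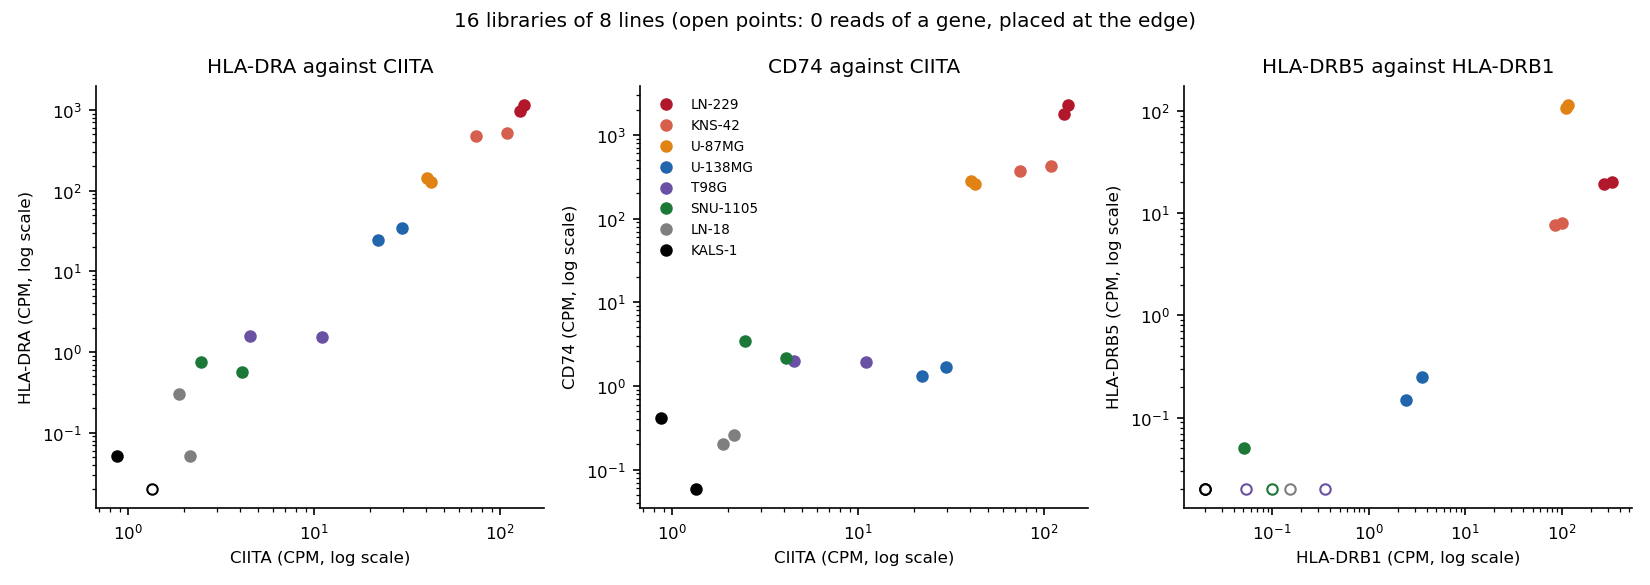
HLA-DRA against CIITA, CD74 against CIITA, and HLA-DRB5 against HLA-DRB1, in CPM on log axes, with 1 point per library (16 libraries, 8 lines) and open points for 0 reads. The lines come in the same order for HLA-DRA as for CIITA, the blue U-138MG points lie at 29.7 and 21.9 CPM of CIITA but at 1.66 and 1.297 CPM of CD74, and the orange U-87MG points lie above the other lines for HLA-DRB5 at an HLA-DRB1 level close to that of KNS-42.

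U-138MG held CIITA at 0.621 of the level of U-87MG, while its CD74 level was 182-fold below that of U-87MG. Its 2 libraries had 589 and 440 reads of CIITA against 33 and 26 reads of CD74, while U-87MG had 875 and 811 reads of CIITA against 5257 and 5644 of CD74. On the log2 scale CD74 in U-138MG was lower than in LN-229 by 10.42 (SE 0.37, edgeR adjusted p = 3.96e-13), than in KNS-42 by 8.07 (SE 0.34, adjusted p = 1.51e-12) and than in U-87MG by 7.50 (SE 0.33, adjusted p = 2.64e-12). U-87MG and T98G were grown in the same medium as U-138MG, EMEM with 10% serum, and CD74 was not called between T98G and U-138MG with library totals.

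The other members were lower in U-138MG by unequal amounts. HLA-DPA1 lay 3.52, 2.90 and 1.52 below LN-229, KNS-42 and U-87MG on the log2 scale (SE 0.26, 0.25 and 0.24), and HLA-DRA 5.19, 4.08 and 2.23 below them (SE 0.28, 0.26 and 0.24). HLA-DRB1 lay 6.65, 4.96 and 5.25 below (SE 0.36, 0.33 and 0.34), and HLA-DQA1 had 0 reads. Of the 7 members, 7 were called lower in U-138MG than in LN-229, where 24.1% of tested genes were, 7 than in KNS-42 (29.4%) and 6 than in U-87MG (21.4%), the exception being CIITA.

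Against the other 4 lines U-138MG stood high for most members. It was called higher for 6 of 7 than KALS-1 (39.6% of tested genes) and LN-18 (42.3%), in both cases for all but HLA-DQA1, which was at or near 0 reads in all 3 lines. It was higher for 5 of 7 than SNU-1105 (23.5%) and T98G (44.3%), and the 2 members not called were CD74 and HLA-DQA1. CIITA lay 7.92-fold above SNU-1105 in U-138MG (log2 difference 2.98, SE 0.36, edgeR adjusted p = 7.34e-07), while CD74 lay below it by 0.92 (SE 0.32, adjusted p = 0.0169), under the size set for a call. With TMM and RLE factors this CD74 difference, U-138MG minus SNU-1105, was called (-1.14, edgeR adjusted p = 0.00378, and -1.05, adjusted p = 0.00701). It was also called without replicate 1 of SNU-1105 (-1.198, edgeR adjusted p = 0.00542) or replicate 1 of U-138MG (-1.104, adjusted p = 0.0301), and without replicate 2 of either line it was -0.56 and -0.75 (adjusted p = 0.194 and 0.120). The call of CIITA over T98G (log2 difference 1.74, SE 0.34, edgeR adjusted p = 0.000172) fell below that size with TMM (0.95) and RLE factors (0.94), which moved the median of all genes between these lines by 0.79 and 0.80. Of the genes called between U-138MG and T98G 64.2% were higher in U-138MG with library totals and 53.7% with TMM factors.

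Ratios to CIITA within a library remove the library total. For each CIITA read, LN-229 held 16.9 and 14.1 reads of CD74 in its libraries, U-87MG 6.01 and 6.96, and KNS-42 5.05 and 3.901. SNU-1105 held 0.538 and 1.39 reads, T98G 0.435 and 0.175, LN-18 0.122 and 0.108, KALS-1 0.0435 and 0.471, and U-138MG 0.0560 and 0.0591. The mean was lowest in U-138MG (0.0576 ± 0.00217, SD, n = 2), and both of its libraries lay below all others except replicate 1 of KALS-1, which had 1 CD74 read and 23 CIITA reads. Against KALS-1 and LN-18, which had the lowest CIITA levels, a lower ratio in U-138MG was called for 89.2% and 81.7% of tested genes, and the CD74 differences on the log2 scale (2.57 and 1.95) were smaller than those of the median gene (3.85 and 3.16).

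**Figure D3:**
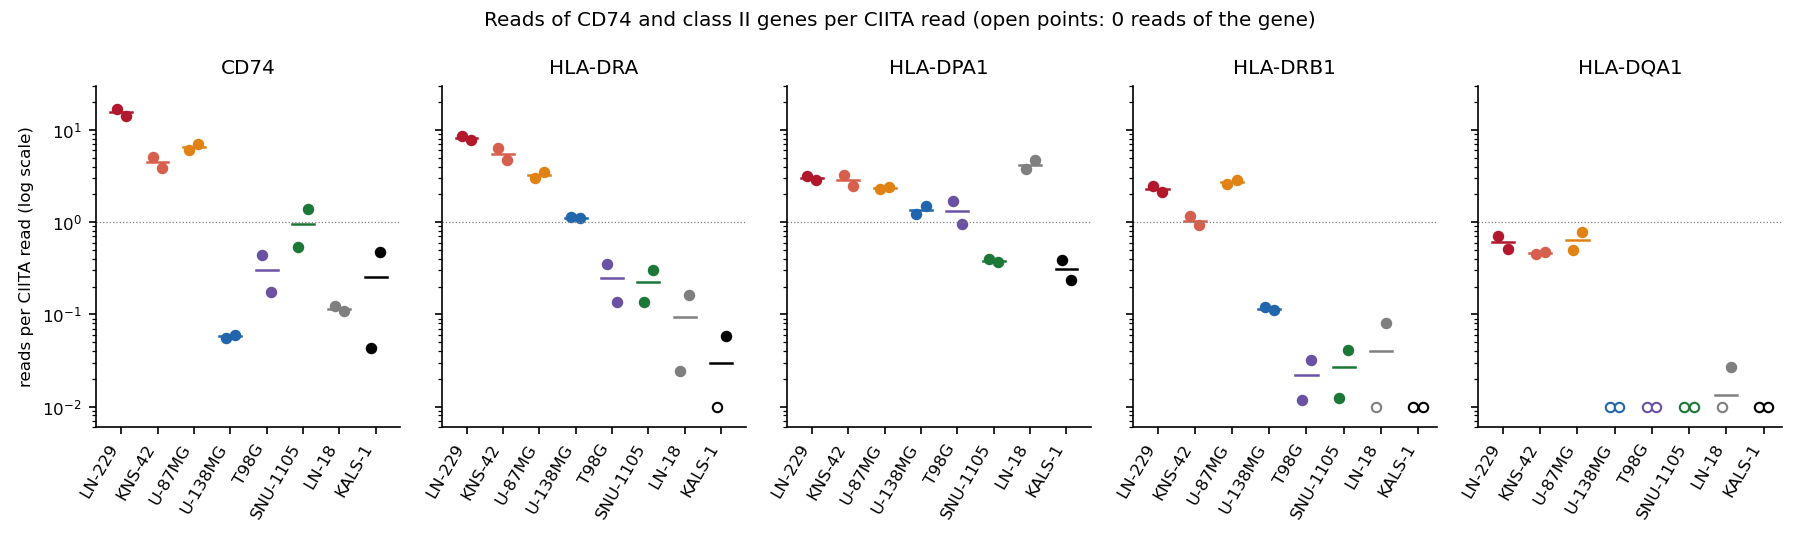
Reads of CD74 and of 4 class II chain genes per CIITA read in the same library (log axis), with points for libraries, bars for the mean of the 2 libraries of a line, open points for 0 reads and a dotted line at 1. U-138MG has the lowest mean for CD74, at 0.0560 and 0.0591, but comes after LN-229, KNS-42 and U-87MG for HLA-DRA at 1.15 and 1.10.

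HLA-DRA per CIITA read followed the order of CIITA itself. LN-229 had 8.14 ± 0.60, KNS-42 5.53 ± 1.197, U-87MG 3.28 ± 0.35 and U-138MG 1.12 ± 0.033 (SD, n = 2), and the other 4 lines 0.0294 to 0.245 on average. HLA-DRB1 per CIITA read was 2.73 ± 0.20 in U-87MG, 2.30 ± 0.23 in LN-229, 1.04 ± 0.16 in KNS-42 and 0.115 ± 0.0053 in U-138MG. The HLA-DQA1 ratio was similar in the 3 lines with more than 1 read, at 0.638 ± 0.20 in U-87MG, 0.607 ± 0.14 in LN-229 and 0.464 ± 0.023 in KNS-42.

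HLA-DPA1 spanned a narrower range relative to CIITA than CD74 or HLA-DRA. LN-229 had a mean ratio of 3.01, KNS-42 of 2.87, U-87MG of 2.36, U-138MG of 1.35, T98G of 1.32, SNU-1105 of 0.384 and KALS-1 of 0.313. The highest value was in LN-18, with 3.73 and 4.68 HLA-DPA1 reads per CIITA read, above every other library, and only KALS-1 had a lower CIITA level than LN-18. HLA-DRB5 per CIITA read was 2.65 ± 0.22 in U-87MG, 0.150 in LN-229, 0.0883 ± 0.022 in KNS-42 and 0.00765 ± 0.0012 in U-138MG.

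The ratios were tested between lines with limma on log2(CPM + 0.5) of each gene minus that of CIITA, a scale that understates differences of low genes. For CD74, U-138MG minus LN-229 gave a log2 ratio difference of -7.67 (SE 0.46), U-138MG minus KNS-42 -5.87 and U-138MG minus U-87MG -6.401. Since that fit gave every gene the same variance, the variance of each gene alone was used as well, with SE 0.53 for CD74, 95% intervals of -8.88 to -6.45, -7.08 to -4.65 and -7.61 to -5.19, and limma adjusted p = 4.24e-06, 1.65e-05 and 1.03e-05. Lower ratios in U-138MG were called for 4.93% of 2070 tested genes against LN-229, 9.18% against KNS-42 and 10.9% against U-87MG. Among these genes the CD74 difference was the largest against LN-229, the 16th against KNS-42 and the 9th against U-87MG. CIITA is subtracted alike from every gene, so these ranks are also those of the plain level differences and do not bear on CIITA. All ratios share the error of CIITA, so their p-values are not independent.

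For HLA-DRA and HLA-DPA1 the differences relative to CIITA were smaller in size than for CD74, which was not tested between the genes. For HLA-DRA per CIITA the differences of U-138MG from LN-229, from KNS-42 and from U-87MG were -2.85, -2.28 and -1.53 on the same scale (limma, gene-wise SE 0.46, adjusted p = 0.000521, 0.00190 and 0.0144). For HLA-DRB1 they were -4.11, -2.97 and -4.36 (gene-wise SE 0.31), and for HLA-DRB5, with 8 reads in U-138MG, -2.51, -1.78 and -6.61 (gene-wise SE 0.37). On this scale the HLA-DRB5 difference from U-87MG was close in size to that of CD74, but the added 0.5 CPM understates it. HLA-DRB5 reads per CIITA read were 2.49 and 2.81 in U-87MG and 0.00849 and 0.00682 in U-138MG. For CD74 they were 6.01 and 6.96 against 0.0560 and 0.0591, a smaller gap. For HLA-DQA1 the differences of U-138MG from LN-229, KNS-42 and U-87MG were -4.97, -4.60 and -5.03 (gene-wise SE 0.43). With 0 reads of HLA-DQA1 in U-138MG, the added 0.5 CPM limits these sizes, so they do not place it below CD74. For HLA-DPA1 they were -1.17, -1.09 and -0.81, each called with the gene-wise variance (SE 0.24, limma adjusted p = 0.00206, 0.00307 and 0.0132). With the same variance for every gene (SE 0.46) the difference was not called against U-87MG (limma adjusted p = 0.0927, but 0.0299 without the T98G libraries). In that fit it was called against LN-229 (limma adjusted p = 0.0147) and KNS-42 (0.0234). Without replicate 1 of U-138MG neither call held (limma adjusted p = 0.0931 and 0.123). The LN-229 call also ended without replicate 1 of LN-229 (0.0810), and the KNS-42 call without replicate 1 of KNS-42 (0.137) and with 0.1 CPM added in place of 0.5 (0.0534).

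Set against T98G and SNU-1105, CD74 and HLA-DRA went in opposite directions in U-138MG. The CD74 ratio differed by -2.09 from T98G and by -3.54 from SNU-1105 (limma, gene-wise SE 0.53, adjusted p = 0.00615 and 0.000316), a direction called for 57.8% and 90.4% of tested genes. The ratio of the median gene was also lower in U-138MG, by 1.45 and 2.83, and CD74 ranked 604th and 437th of 2070 genes in that direction. These ranks, too, are those of the plain level differences. The HLA-DRA ratio was higher by 2.05 and 1.84 (limma, gene-wise SE 0.46, adjusted p = 0.00339 and 0.00601), which was called for 17.0% and 2.75% of tested genes. CD74 reads per HLA-DRA read were 0.0513 on average in U-138MG, against 0.812 in KNS-42, 1.25 in T98G, 1.901 in LN-229, 1.98 in U-87MG and 4.22 in SNU-1105.

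Levels of different genes can be set side by side only per length. In FPKM, HLA-DRA was the highest member in LN-229 (856 ± 92.0), KNS-42 (395 ± 23.0), U-87MG (109 ± 7.45) and U-138MG (23.4 ± 5.61; SD, n = 2). CD74 was at 448 ± 73.4, 88.2 ± 8.22, 59.5 ± 3.92 and 0.330 ± 0.0566 FPKM in the same lines, and CIITA at 5.79 ± 0.198, 4.05 ± 1.11, 1.84 ± 0.0707 and 1.15 ± 0.247 FPKM. Per length, CD74 was thus above CIITA by 77.3-fold in LN-229, 32.3-fold in U-87MG and 22.3-fold in KNS-42, and at 0.287 of CIITA in U-138MG. The deposited lengths set these values: 22553 bases for CIITA and 4526 for CD74, where GENCODE 29 coding transcripts span 2344 to 16059 and 981 to 1449 bases, but 1244 against 1280 for HLA-DRA. Comparisons of 1 ratio between lines do not depend on them.

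The genes most like CIITA over the 16 libraries, by Pearson r of log2(CPM + 0.5) among 1204 genes that reached 10 CPM, were HLA-DRA (r = 0.98), HLA-DPA1 (0.96), HLA-DRB1 (0.93), HLA-DMB (0.93), which is a chain of HLA-DM, and NEMP2 (0.92). CD74 came 11th (0.89), HLA-DQA1 16th (0.86) and HLA-DRB5 73rd (0.77). Most like CD74 were HLA-DQA1 (0.98), HLA-DRB1 (0.97), HLA-DQB1 (0.96), LRRTM4 (0.94) and HLA-DMA (0.94). By Spearman rho these 5 genes came in another order, at 0.78, 0.81, 0.74, 0.84 and 0.93 in the same sequence. These values only rank genes, because the libraries are pairs from 8 lines and share their totals.

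Counts of listed genes here and below are for the 8 lines unless other lines are named. Of 11 further class II genes looked for, 5 were listed: HLA-DQB1, HLA-DMA, HLA-DMB, HLA-DOA and HLA-DRB6. HLA-DMA and HLA-DMB, which together load peptide, were each called in 23 of 28 pairs (82.1%), HLA-DQB1 and HLA-DOA in 17 (60.7%) and HLA-DRB6 in 16 (57.1%). Of all gene and pair tests 58.2% were called, so HLA-DQB1, HLA-DOA and HLA-DRB6 were near that share. For HLA-DMA, LN-229 held 139.8 ± 21.0 CPM, KNS-42 48.5 ± 10.9, U-87MG 17.3 ± 0.865, T98G 11.5 ± 7.63, U-138MG 4.57 ± 1.10, SNU-1105 4.51 ± 0.272, KALS-1 2.89 ± 0.457 and LN-18 2.01 ± 0.327 (SD, n = 2). U-138MG and SNU-1105 were not separated for HLA-DMA (log2 difference 0.02, SE 0.36, edgeR adjusted p = 1.0), although HLA-DRA lay 5.46 higher in U-138MG (SE 0.33, edgeR adjusted p = 7.90e-11).

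HLA-DOA, a chain of the HLA-DM modulator, and HLA-DQB1, the DQ beta chain, were like HLA-DQA1 in having more than 3 reads in 3 lines only. HLA-DOA was at 69.3 ± 11.7 CPM in LN-229, 57.0 ± 9.78 in KNS-42 and 3.15 ± 1.97 in U-87MG, and at most 0.0777 on average in the other lines. HLA-DQB1 was at 38.6 ± 2.84 CPM in U-87MG, 32.8 ± 1.35 in LN-229 and 13.1 ± 2.22 in KNS-42, with 0 reads in U-138MG, T98G and KALS-1. Per HLA-DQB1 read, KNS-42 held 3.22 reads of HLA-DQA1, LN-229 2.42 and U-87MG 0.677. Both DQ chains thus had 0 reads in U-138MG, where both the DR alpha chain and the DP alpha chain exceeded 24 CPM in each library.

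**Figure D4:**
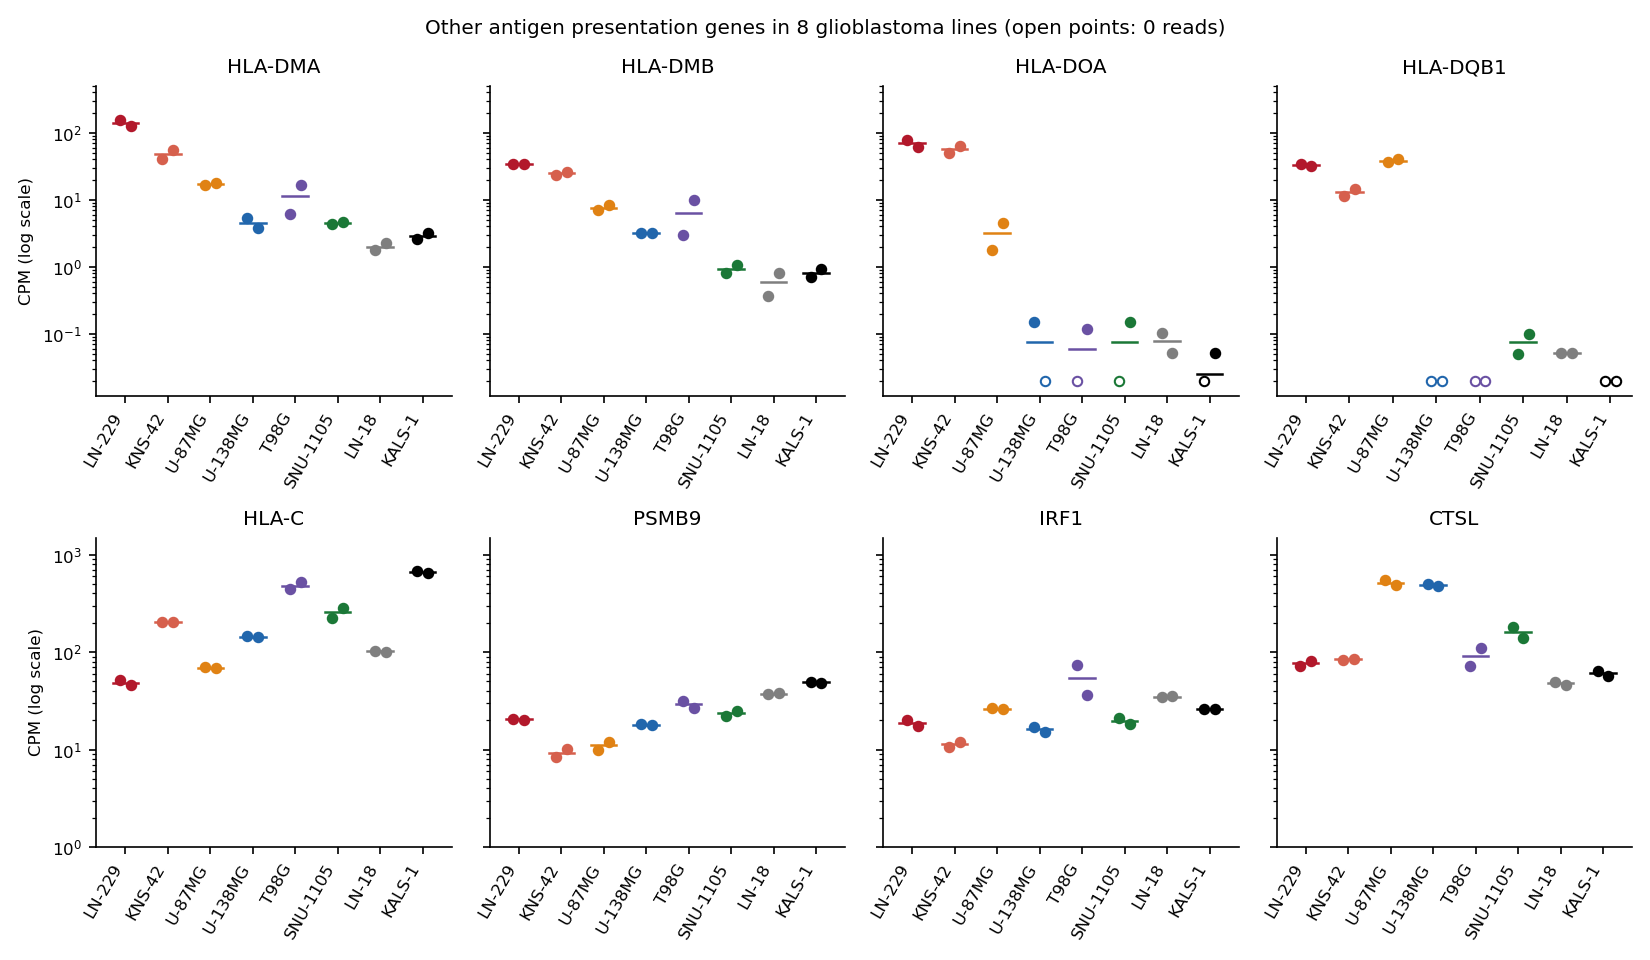
CPM (log axes) of 4 class II partner genes in the upper row and of HLA-C, PSMB9, IRF1 and CTSL in the lower row, in the 16 libraries of the 8 lines, with bars for means and open points for 0 reads. In the upper row LN-229, KNS-42 and U-87MG hold the 3 highest means of each gene, whereas in the lower row KALS-1 is highest for HLA-C at 664 CPM and for PSMB9 at 49.2 CPM.

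Of 16 class I presentation genes looked for, 3 were listed, and their order of lines differed from that of class II. HLA-C, a class I heavy chain with close paralogs, was lowest in LN-229 (48.4 ± 3.87 CPM) and U-87MG (69.5 ± 0.125 CPM). It was at 204.8 ± 1.69 CPM in KNS-42, 144 ± 0.934 CPM in U-138MG and 479.7 ± 55.8 CPM in T98G (SD, n = 2). Of 15 genes that signal to CIITA, 1 was listed, IRF1, an interferon-induced activator of CIITA, and it was called in 10 of 28 pairs. IRF1 was highest in T98G (54.6 ± 26.1 CPM) and lowest in KNS-42 (11.3 ± 0.817 CPM), with 18.7 ± 1.92 in LN-229 and 16.1 ± 1.499 in U-138MG.

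CTSL, a lysosomal protease that can cut the invariant chain, was the only one listed of 10 genes of peptide processing. It was at 516 ± 45.4 CPM in U-87MG and 486 ± 18.5 in U-138MG, against 84.4 ± 2.14 in KNS-42 and 76.5 ± 5.16 in LN-229. None of 7 genes of the promoter-bound complex, 11 of costimulation or 5 of the CD74 receptor complex had a row, and they were not analysed here.

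Markers of cells that make class II constitutively did not follow the order of the lines for class II. Of 10 macrophage or microglia markers 4 were listed (PTPRC, CD14, CSF1R and ITGAM), and their summed level was 0.863 to 1.19 CPM in LN-229, 0.720 to 1.02 in KNS-42, 8.69 to 9.08 in U-87MG and 1.65 to 2.22 in U-138MG. The part of such cells in the members' levels was not tested beyond these values. Of the lines low for class II, KALS-1 had 16.9 to 18.5 CPM and SNU-1105 23.0 to 26.6, whereas LN-18 had 2.40 to 2.49 and T98G 1.54 to 2.69. PTPRC, which defines blood cells, was at or below 0.0746 CPM on average in LN-229, U-87MG and KNS-42. The summed level of U-87MG thus came almost wholly from CD14, CSF1R and ITGAM. None of 5 B cell markers and 1 of 4 dendritic cell markers was listed, the latter (CLEC9A) at 0 reads in LN-229, KNS-42, U-87MG and U-138MG. Of 10 glioma and glial markers 4 were listed, and VIM was at 1241 to 4946 CPM on average in all 8 lines, while SOX2 ranged from 0.0265 CPM in T98G to 800.3 CPM in KNS-42.

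HLA-DQA1 was also measured in A-172, AM-38 and SNU-466, whose table was fitted apart. It had 0 reads in both libraries of A-172, 8 and 8 reads in AM-38 (0.377 and 0.402 CPM), and 194 and 180 reads in SNU-466 (11.4 and 9.17 CPM). The 3 lines did not overlap. SNU-466 lay 4.70 above AM-38 on the log2 scale (SE 0.28, edgeR adjusted p = 1.44e-29), where 39.8% of tested genes were called in that direction. A-172 was called lower than AM-38 (24.7% of tested genes) and than SNU-466 (34.5%). Its partner HLA-DQB1, the 1 of the 11 further class II genes listed there, was at 5.18 ± 0.739 CPM in SNU-466, 0.0943 ± 0.133 in AM-38 and 0 reads in A-172. SNU-466, set beside the other table without a test, thus lay under U-87MG (26.4 ± 7.39 CPM) for HLA-DQA1.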

How the data were processed

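The counts are whole reads per gene and the FPKM values are scaled to gene length and library, both as deposited by the authors, in a table of 8 lines and one of 3. The submitters' processing notes name HISAT2 2.2.1, StringTie 1.3.3, HTSeq 0.6.0, FastQC 0.10.1, cutadapt 1.9.1 and build hg38, without their roles. Library totals were worked back from the deposited reads, lengths and FPKM of genes that had 200 reads or more and an FPKM of 20 or more. Deposited names were matched to GENCODE 29 for 2220 of 2221 and 5382 of 5383 genes.

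Genes with at least 10 reads in both libraries of a line (2071 and 5021) were tested with edgeR 4.0.16 (quasi-likelihood test, 1 coefficient per line, library totals without further factors). P-values were adjusted by Benjamini-Hochberg over all genes and pairs of a table, and standard errors were worked back from F. Ratios to CIITA were tested with limma 3.58.1. Alternatives were TMM and RLE factors, DESeq2 1.42.0, limma on log2 CPM, no low-count filter, other added values, a replicate block and each library left out. The gene-wise variance and the fits without T98G were chosen after seeing the data. Scripts were tested on simulated data.

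The members and gene lists were chosen with earlier results of these data known. Named were the 7 members, at most 3 genes per list with the highest mean CPM, counts of 5 or fewer in full, and the 5 genes most like CIITA and CD74. Replicate numbers are shared between lines, but correlations of same-numbered libraries were -0.118 to 0.0765 in the table of 8 lines, so the numbers were not taken as pairs. No 2 libraries of a line were identical. RefSeq proteins were not used here.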

Additional observations from a re-analysis of the deposited data

How the results depend on the processing

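The number of members called lower in U-138MG (7 against LN-229, 7 against KNS-42 and 6 against U-87MG) and the 3 CD74 ratios kept their direction and call under every alternative run. The members called higher in U-138MG stayed at 6 over KALS-1 and over LN-18. Over T98G they went from 5 to 4 with TMM and RLE factors, and over SNU-1105 from 5 to 4 in DESeq2, without replicate 2 of SNU-1105 and without replicate 1 of U-138MG. Of 33774 gene and pair tests called in the table of 8 lines, TMM factors gave 33150, RLE factors 33122, DESeq2 31264, limma 34344, no filter 34945 and single libraries left out 32841 to 33725. With the replicate number as a block 33384 were called, and among the named pairs of lines only the HLA-DRA call of LN-18 over KALS-1 was lost. Without 1 library the CD74 ratio of U-138MG was lower than in LN-229 by a log2 difference of -7.80 to -7.53, in KNS-42 by -6.05 to -5.68 and in U-87MG by -6.51 to -6.30. For HLA-DQA1, SNU-466 over AM-38 was 4.22 with RLE factors, 4.71 with the replicate block and 4.54 to 4.86 with a library left out. TMM factors moved the median of all genes by 0.20 to 0.79 in the 7 pairs with T98G and by 0.00 to 0.59 in the other 21, and RLE factors by 0.14 to 0.86 and 0.02 to 0.72. The share of higher calls moved by over 10 points in 4 of the 7 pairs with T98G and 1 of the other 21 under TMM, and in 5 and 0 under RLE. Of the single genes named, 20 values lost a call, 14 gained one and 977 kept theirs, none reversed, and the cause was not tested. Depth limits the members with under 10 reads in a library, which are most members in KALS-1 and LN-18. Since factors come from listed genes only, they need not reflect whole libraries.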

Other observations

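HLA-DMA, a chain of the peptide loader HLA-DM, was also low per CIITA read in U-138MG. It had 0.176 ± 0.0051 reads per CIITA read there (SD, n = 2) and 0.416 ± 0.037 in U-87MG, the line with the next mean. On the scale of log2(CPM + 0.5) minus CIITA, U-138MG minus U-87MG was -1.13 for HLA-DMA (limma, SE 0.46, adjusted p = 0.0180, or 0.00674 with the gene-wise variance), a direction called for 10.9% of tested genes. HLA-DMB, its partner chain, had 0.126 ± 0.027 reads per CIITA read in U-138MG and 0.185 ± 0.032 in U-87MG, and was not called (-0.45, SE 0.46, limma adjusted p = 0.358).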
